A study of Mus musculus with 12 samples.

Results

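The protocadherins are the largest branch of the cadherin superfamily, and the 64 genes of the table whose symbol starts with Pcdh were taken as its members, out of 14317 genes in all. They comprised 11 genes of the Pcdha cluster, 21 of the Pcdhb cluster, 21 of the Pcdhg cluster and 11 single genes outside the clusters. GENCODE M39 lists 71 such genes, and the remaining 7, among them Pcdha4, Pcdhb1, Pcdhga10 and Pcdh12, were not analysed here. The mRNA came from the ischemic penumbra of the cortex on the operated side, in 6 Sham mice and 6 tMCAO/R mice, in which the middle cerebral artery was blocked for 60 min and the tissue then reperfused for 24 h. Per the study, all animals were 8-week-old C57BL/6J males, and each gave 1 library. Values are FPKM, that is, fragments divided by gene length and by library size.

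Protocadherins sit in the neuronal membrane and bind the same isoform on a facing cell. Each Pcdha or Pcdhg gene joins its own variable exon, which encodes the extracellular part and has its own promoter, to constant exons that the whole cluster shares, whereas a Pcdhb protein is encoded by a single exon with no constant part. Neurons choose a few of these promoters at random, which gives each cell a surface identity used in self-avoidance of dendrites and axons. The C-type isoforms (Pcdhac1, Pcdhac2, Pcdhgc3, Pcdhgc4 and Pcdhgc5) escape much of this random choice and are read by most neurons of a given kind. The single genes, mostly of the delta-1 and delta-2 groups, are read in patterns set by brain region and cortical layer and guide axon growth and synapse formation.

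The Sham libraries held 13496273 to 15808212 fragments and the tMCAO/R libraries 13057288 to 14988265. The library of tMCAO/R mouse 4 stood apart from its group, with a median Spearman correlation of 0.934 against 0.971 to 0.98 for the others, and that of Sham mouse 6 lay nearest to the tMCAO/R libraries on the main principal component. Markers of cortical neurons were present in every library. Markers of other regions differed between the groups: 5 of 6 hippocampal markers fell (summed FPKM of the list 167 to 262 in the Sham group and 26.7 to 43.0 in the tMCAO/R group), 6 of 6 striatal markers rose (20.4 to 29.3 and 32.5 to 364), and 6 of 6 markers of the cortical layers rose (14.1 to 19.8 and 52.9 to 103). Among 8 neuronal markers 4 rose and none fell (603 to 730 and 731 to 950), 3 of 5 oligodendrocyte markers fell (435 to 981 and 223 to 426), and 2 of 4 choroid plexus markers fell (32.6 to 1850 and 0.413 to 3.12). Astrocyte, oligodendrocyte precursor, microglial and endothelial lists had members in both directions, and no marker of these lists was at 0 throughout a group. The Y-linked genes Ddx3y, Eif2s3y, Kdm5d and Uty were listed at 0 in every Sham mouse and were read in every tMCAO/R mouse (summed 7.79 to 15.9 FPKM), although all mice are described as male. The part of these differences in the results below was not tested, and in bulk tissue fewer cells of a type and less RNA per cell cannot be told apart.

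More protocadherins were higher than lower after tMCAO/R. With limma on log2(FPKM + 1) and an adjusted p below 0.01 over all genes, 25 of the 64 rose and 7 fell, where 15.5% of all genes rose and 16.5% fell (32.0% in either direction). The median log2FC of the members was 0.19, and that of all genes was -0.01. In 16 members every tMCAO/R mouse lay above every Sham mouse, and in 5 every one lay below, against 12.3% and 12.6% of all genes. Adding 1 FPKM understates changes at low FPKM, and many members are low: 46 of the 64 reached 0.5 FPKM in at least 6 libraries. With limma-voom on the whole fragments, 25 rose and 6 fell among the 63 members tested (17.4% and 16.3% of all genes, 33.6% in either direction), and 30 of the 32 calls were made in the same direction by both. Without tMCAO/R mouse 4, 29 rose and 9 fell, and without Sham mouse 6, 27 rose and 6 fell. On log2(FPKM + 1) a single member, Pcdh20, also passed a |log2FC| of 2, which 0.419% of all genes did. The study sets this limit for DESeq2 on counts, a scale on which low genes are not held back by an added FPKM. With limma-voom Pcdh20 passed too (-2.80), and so did Pcdha6, Pcdha7, Pcdhac1, Pcdhac2, Pcdhga5, Pcdhga7, Pcdhgc4, Pcdh10 and Pcdh11x (2.05 to 2.68). The share of all genes past this limit with limma-voom was not counted. The 0.419% belongs to log2(FPKM + 1) and cannot be set against these members.

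The summed FPKM of the Pcdha and Pcdhg clusters was higher and that of the Pcdhb cluster slightly lower in tMCAO/R mice. The summed FPKM of the 11 Pcdha genes was 2.515 ± 1.229 in the Sham group and 10.4 ± 1.82 in the tMCAO/R group (SD, n = 6 mice per group), a ratio of means of 4.14. All Sham mice, at 1.618 to 4.889, lay below all tMCAO/R mice, at 7.659 to 12.61. The 21 Pcdhg genes summed to 10.32 ± 4.244 and 23.29 ± 4.469 FPKM, a ratio of 2.26, and the groups met at their edges, with 18.54 in Sham mouse 6 and 18.63 in tMCAO/R mouse 3. The 21 Pcdhb genes summed to 43.27 ± 3.117 and 36.17 ± 2.783 FPKM, a ratio of 0.836, with an overlap between 38.07 and 41.65. Sums over members were not tested. The ratios without Sham mouse 6 were 5.10 for Pcdha and 2.68 for Pcdhg.

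**Figure D1:**
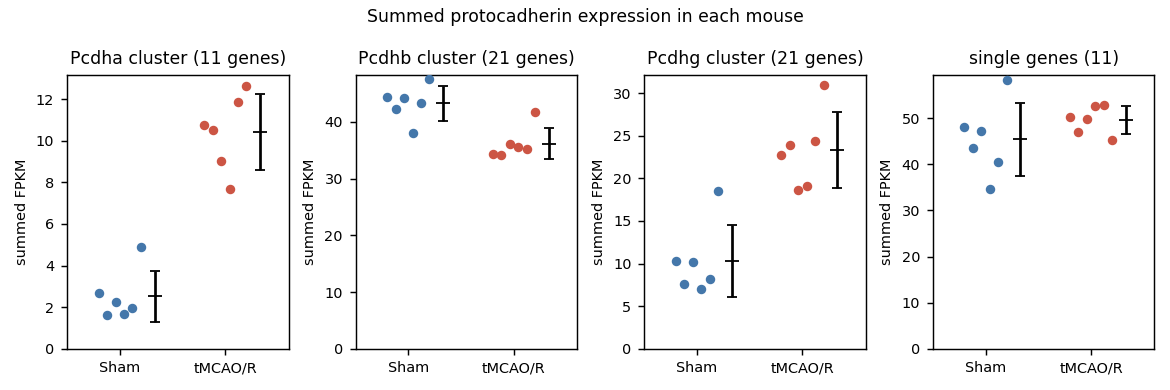
Summed FPKM of the Pcdha, Pcdhb and Pcdhg clusters and of the single genes (y axis, linear, from 0) in each of the 6 Sham and 6 tMCAO/R mice (points), with the mean and SD of each group at its right. The Pcdha sums do not overlap (1.618 to 4.889 and 7.659 to 12.61 FPKM), the Pcdhg sums nearly meet at 18.54 and 18.63, and the Pcdhb sums overlap.

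The balance between the clusters differed as well. Of the fragments of the 3 clusters, Pcdhb genes took 55.2% to 72.2% in Sham mice (mean 67.4%) and 35.8% to 47.0% in tMCAO/R mice (mean 39.1%). The share of Pcdhg genes was 23.6% to 36.9% and 40.2% to 49.5%, and that of Pcdha genes 4.15% to 7.95% and 12.8% to 16.3%. No range of either group reached that of the other. These shares are those of pooled tissue and carry no information on which isoforms a single neuron read.

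In the Pcdha cluster, 8 of 11 genes rose and none fell, where 15.5% of all genes rose and 16.5% fell. All 11 had a higher mean, 2.92 to 6.06 times that in Sham mice. The intracellular part that these isoforms share binds the WAVE complex of actin regulators and, in mice, the kinases Fyn, Fak and Pyk2. Among the 9 alternate isoforms, which neurons choose at random, Pcdha5 was at 0.120, 0.259 and 0.467 FPKM in Sham mice (lowest, median and highest) and at 0.633, 0.988 and 1.21 in tMCAO/R mice, with no overlap (log2FC 0.63, standard error 0.08, adjusted p = 3.98e-05, limma). Pcdha3 was at 0.125, 0.175 and 0.318 FPKM and at 0.503, 0.657 and 0.898, again apart (log2FC 0.49, adjusted p = 7e-05, limma). Few fragments lay behind these values, 9 to 33 per Sham library and 43 to 83 per tMCAO/R library for Pcdha5.
Pcdha6, Pcdha7, Pcdha10 and Pcdha12 rose with a log2FC of 0.19 to 0.76, and Pcdha6 alone of these did not overlap. The call of Pcdha10 (adjusted p = 0.00595, limma) was lost when any of Sham mice 1, 2, 3 and 5 or of tMCAO/R mice 1, 2, 3, 5 and 6 was left out. Pcdha2 (log2FC 0.21, adjusted p = 0.0121), Pcdha9 (0.49, 0.0112) and Pcdha1 (0.11, 0.059) were not called by limma. Pcdha1 was read from 0 to 7 fragments in Sham libraries and from 0 to 30 in tMCAO/R libraries. Without tMCAO/R mouse 4, 10 of the 11 rose.

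The C-type isoforms rose in both clusters that hold them, 5 of 5, against 15.5% of all genes. Pcdhac2, which serotonergic neurons of mice need to space their axons, was the most abundant Pcdha gene, at 0.503, 0.870 and 2.19 FPKM in Sham mice (lowest, median and highest) and at 3.43, 4.74 and 6.12 in tMCAO/R mice. The groups did not overlap (log2FC 1.57, standard error 0.17, adjusted p = 8.83e-06, limma). Pcdhac1 was at 0.0384, 0.102 and 0.258 FPKM and at 0.365, 0.416 and 0.752, likewise apart (log2FC 0.42, adjusted p = 3.14e-04, limma).
Pcdhgc5, which in rodents binds GABA-A receptors, was at 1.29, 1.73 and 3.69 FPKM in Sham mice and at 3.52, 7.05 and 10.0 in tMCAO/R mice. Its groups overlapped only between Sham mouse 6 and tMCAO/R mouse 4 (log2FC 1.41, standard error 0.21, adjusted p = 1.27e-04, limma). Pcdhgc4, which cortical interneurons of mice need to survive their developmental cell death, was at 0.0791, 0.167 and 0.244 FPKM and at 0.619, 1.08 and 1.27, a ratio of means of 6.14 and the highest of any member (log2FC 0.78, adjusted p = 7.1e-06, limma). Pcdhgc3, which promotes branching of cortical dendrites in mice, was at 0.184, 0.429 and 0.841 FPKM and at 0.854, 1.76 and 1.80 (log2FC 0.82, adjusted p = 1.23e-04, limma). The groups of both did not overlap, those of Pcdhgc3 by a narrow margin.

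**Figure D2:**
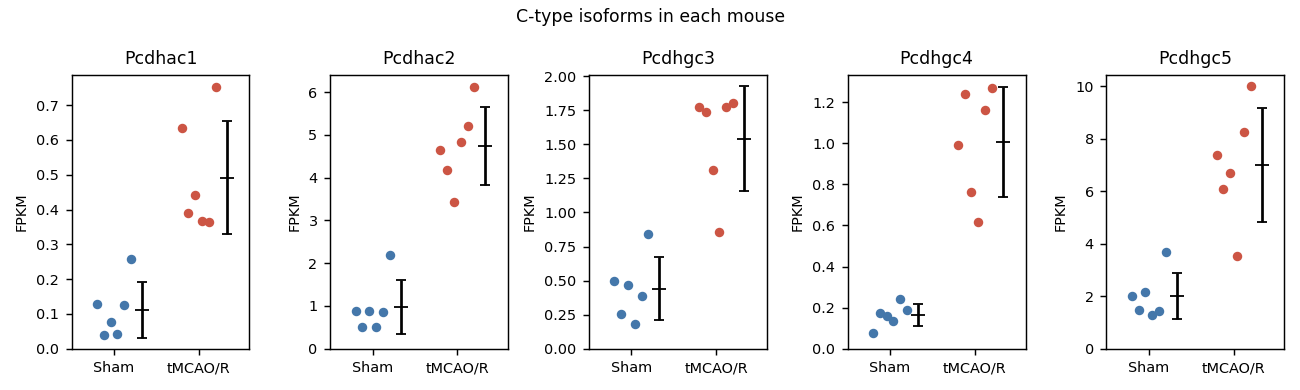
FPKM of the 5 C-type isoforms (y axes, linear, from 0, each with its own range) in each of the 6 Sham and 6 tMCAO/R mice (points), with the mean and SD of each group at its right. Pcdhac1, Pcdhac2, Pcdhgc3 and Pcdhgc4 do not overlap between the groups, and for Pcdhgc5 Sham mouse 6 at 3.69 lies just above tMCAO/R mouse 4 at 3.52.

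Whether neighbouring C-type genes moved by different amounts was asked with their log2 ratio within each mouse, 0.1 FPKM being added to each gene. It was one of 7 such ratios, each put to an exact permutation test over the mice (two-sided) and adjusted over the 7. The ratio of Pcdhac1 to Pcdhac2 was -2.26 ± 0.256 under Sham and -3.05 ± 0.355 under tMCAO/R (SD, n = 6 mice per group), lower in 6 of 6 tMCAO/R mice than in any Sham mouse (difference -0.79, standard error 0.18, adjusted p = 0.00504, exact permutation test). The low Pcdhac1 lies near the added 0.1 FPKM, and with 0.02 FPKM added the difference was -0.30 and no longer passed (adjusted p = 0.197, same exact test). Among the Pcdhg genes no ratio passed the test with 0.1 FPKM added: Pcdhgc3 to Pcdhgc4 differed by -0.38 (standard error 0.28, adjusted p = 0.297), Pcdhgc3 to Pcdhgc5 by -0.10 (0.13, 0.455) and Pcdhgc4 to Pcdhgc5 by 0.28 (0.28, 0.399, exact permutation tests). With 0.5 FPKM added, Pcdhgc3 to Pcdhgc5 differed by -0.455 and passed (adjusted p = 0.0114, same exact test), and Pcdhgc4 to Pcdhgc5 turned to -0.419 (0.106).
Within the Pcdhg cluster the C-type share of fragments was 36.0% to 43.2% under Sham and 40.8% to 63.7% under tMCAO/R, where tMCAO/R mouse 4, at 40.8%, was the one that lay in the Sham range. Within the Pcdha cluster it was 32.3% to 50.4% and 42.8% to 68.2%, with overlap.

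In the Pcdhg cluster, 10 of 21 genes rose and none fell, against 15.5% and 16.5% of all genes. The intracellular part that Pcdhg isoforms share acts on focal adhesion kinase and on the actin-binding protein Marcks. Of the alternate isoforms 4 of 11 gamma-A and 3 of 7 gamma-B genes rose. Pcdhga7 had the smallest p, at 0.0715, 0.183 and 0.313 FPKM in Sham mice (lowest, median and highest) and at 0.695, 0.832 and 1.14 in tMCAO/R mice, with no overlap (log2FC 0.66, standard error 0.07, adjusted p = 5.26e-06, limma). Pcdhga4 (log2FC 0.76), Pcdhga5 (0.75), Pcdhga6 (0.74), Pcdhgb2 (0.43), Pcdhgb4 (0.37) and Pcdhgb8 (0.54) rose as well, and the call of Pcdhgb8 was lost without Sham mouse 1, 4 or 5.
The other 11 alternate isoforms were not called. Their log2FC lay between -0.28 for Pcdhga11 and 0.34 for Pcdhga3, and Pcdhga2 (-0.18) was the only other member of the cluster with a lower mean.

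**Figure D3:**
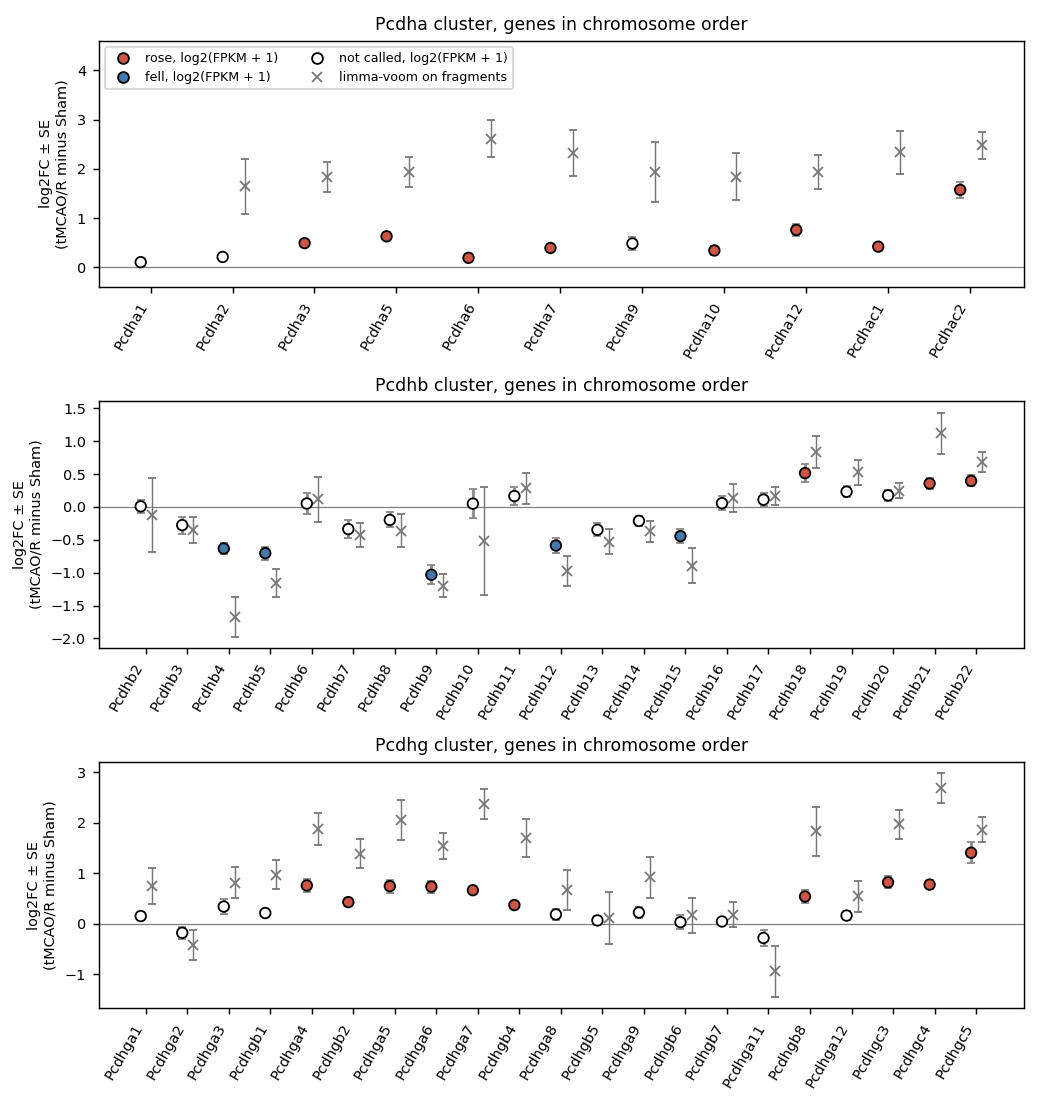
Change of each clustered protocadherin (log2FC, tMCAO/R minus Sham, ± standard error, y axis) with the genes of the Pcdha, Pcdhb and Pcdhg clusters in chromosome order along the x axis. Circles are limma on log2(FPKM + 1), coloured where the gene rose or fell, and crosses are limma-voom on fragments, which has no value for Pcdha1. The falls stand on the left of the Pcdhb panel and the rises on its right, and the called Pcdhg genes form a run from Pcdhga4 to Pcdhgb4 and another from Pcdhgb8 on, with Pcdhga12 uncalled in it.

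The called genes were not spread evenly along the clusters, which lie one after the other on mouse chromosome 18 in the order Pcdha, Pcdhb, Pcdhg. The 6 neighbouring Pcdhg genes from Pcdhga4 to Pcdhgb4 all rose, and so did 4 of the 5 from Pcdhgb8 to Pcdhgc5. None of the 4 genes before the former run and none of the 6 genes from Pcdhga8 to Pcdhga11 between the runs was called. In the Pcdhb cluster, 5 of the 14 genes from Pcdhb2 to Pcdhb15 fell and none rose, whereas 3 of the 7 from Pcdhb16 to Pcdhb22 rose and none fell, and all 7 had a higher mean. These runs were drawn after the values were seen and were not tested.
The sequence of the genes bears on how firmly single isoforms can be read. Of the 75-base words in the transcripts of a Pcdha gene 46.0% to 58.2% also occur in another member, and of a Pcdhg gene 27.1% to 63.6%, against 0% to 8.96% for Pcdhb genes and none for single genes. How fragments of the shared exons were assigned is not stated, and it can change the values of Pcdha and Pcdhg genes. In GENCODE M39 the span of Pcdhb9, which has 2 exons there, encloses Pcdhb10, and Pcdhb21 overlaps Pcdhb22, so their values are uncertain to the extent that fragments were shared.

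In the Pcdhb cluster, 3 of 21 genes rose and 5 fell, and 13 were not called, where 15.5% of all genes rose and 16.5% fell, so the count is near that of all genes. Pcdhb proteins bind like the other clustered isoforms, with which they form mixed dimers in the same membrane. Pcdhb9, the one with the highest mean FPKM over all mice, was at 6.74, 8.63 and 9.22 FPKM in Sham mice (lowest, median and highest) and at 1.88, 4.01 and 4.49 in tMCAO/R mice, with no overlap (log2FC -1.03, standard error 0.14, adjusted p = 7.47e-05, limma). Pcdhb5 was at 1.75, 2.03 and 2.84 FPKM and at 0.686, 0.999 and 1.10, also apart (log2FC -0.70, adjusted p = 7.71e-05, limma).
Pcdhb4 was at 0.766, 1.07 and 1.47 FPKM in Sham mice and at 0.165, 0.325 and 0.558 in tMCAO/R mice, and it had the lowest ratio of means in the cluster, 0.308 (log2FC -0.63, adjusted p = 6.15e-05, limma). Pcdhb12 (log2FC -0.59) and Pcdhb15 (-0.44) fell too. The call of Pcdhb15 was lost with limma-voom on fragments (adjusted p = 0.0113) and without Sham mouse 1, 2 or 5 or tMCAO/R mouse 1 or 6.
Pcdhb22 had the smallest p of the members that rose, at 0.923, 1.23 and 1.46 FPKM in Sham mice and at 1.65, 1.85 and 2.30 in tMCAO/R mice, with no overlap (log2FC 0.40, adjusted p = 0.00168, limma). Pcdhb21 (log2FC 0.36) and Pcdhb18 (0.52) rose as well. The call of Pcdhb21 was lost with each library centred on its median (adjusted p = 0.0155, limma). That of Pcdhb18 was lost with this centring (0.019), quantile normalization (0.0106) and limma-voom (0.0101), and without any of the 6 Sham mice or without tMCAO/R mouse 1 or 6, although its groups did not overlap. The abundant Pcdhb17 and Pcdhb20 were not called, at 3.893 ± 0.4934 and 4.289 ± 0.5538 FPKM (SD, n = 6 mice) and at 4.014 ± 0.4706 and 4.661 ± 0.3877 FPKM.

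The single genes gave both the smallest p of any member and its largest fall. Pcdh10, a delta-2 protocadherin that binds the WAVE complex through Nap1 and is needed for the growth of striatal axons in mice, spans 45332833 to 45390058 of chromosome 3 (GRCm39, plus strand). It was at 1.99, 2.33 and 3.48 FPKM in Sham mice (lowest, median and highest) and at 8.76, 9.94 and 12.3 in tMCAO/R mice, far apart (ratio of means 4.04, log2FC 1.67, standard error 0.11, adjusted p = 9.27e-08, limma). Pcdh20, a little studied member placed here in neither delta group, spans 88694835 to 88708832 of chromosome 14 (minus strand). It was at 7.13, 10.1 and 14.4 FPKM in Sham mice and at 0.901, 1.38 and 2.47 in tMCAO/R mice, a mean 6.93 times higher in Sham mice (log2FC -2.18, standard error 0.16, adjusted p = 3.99e-07, limma). Behind these values stood 828 to 1681 fragments per Sham library and 115 to 313 per tMCAO/R library. The marker lists of the hippocampus, striatum and cortical layers, which hold neither gene, also differed between these groups, as given above.

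**Figure D4:**
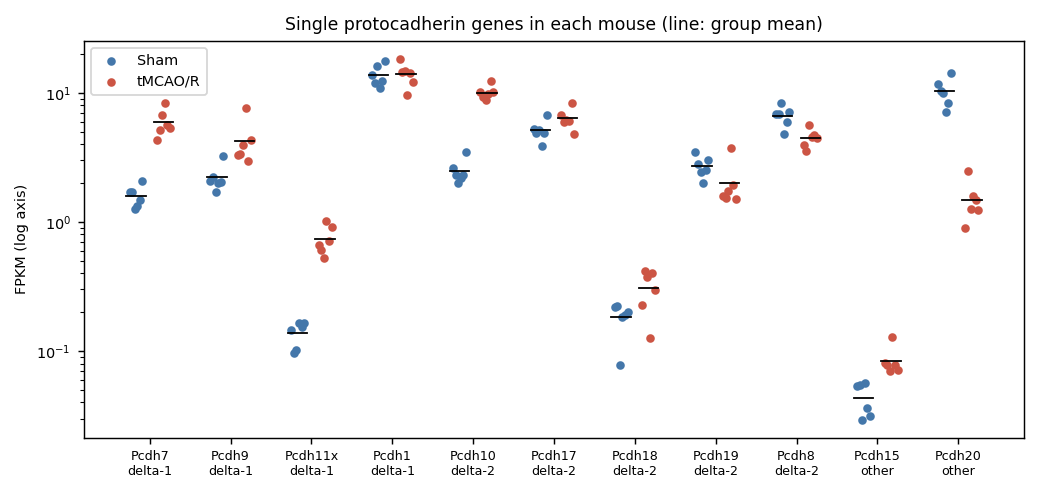
FPKM of the 11 single protocadherins (y axis, log scale) in each of the 6 Sham and 6 tMCAO/R mice (points), with a line at each group mean and the genes ordered by group along the x axis. Pcdh7, Pcdh11x, Pcdh10 and Pcdh15 lie higher in every tMCAO/R mouse and Pcdh20 lower, while the ranges of Pcdh1 overlap, 11.0 to 17.8 and 9.7 to 18.4 FPKM.

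Of the 4 delta-1 genes, whose long intracellular part binds protein phosphatase 1, 3 rose, against 15.5% of all genes. Pcdh7, which spans 57875004 to 58290581 of chromosome 5 (plus strand), was at 1.27, 1.58 and 2.06 FPKM in Sham mice and at 4.35, 5.51 and 8.39 in tMCAO/R mice, with no overlap (log2FC 1.41, standard error 0.13, adjusted p = 2.33e-06, limma). Pcdh11x, on chromosome X, was at 0.0967, 0.149 and 0.166 FPKM and at 0.530, 0.692 and 1.01, a ratio of means of 5.37 (log2FC 0.61, adjusted p = 6.74e-06, limma). Since the Y-linked genes were at 0 in all Sham mice, the groups also differed in that respect. For X-linked and all other genes alike, this difference cannot be told apart from the operation.
Pcdh9, read in a layered pattern in rodent cortex, was at 1.70, 2.07 and 3.22 FPKM in Sham mice and at 2.96, 3.67 and 7.65 in tMCAO/R mice, with overlap (log2FC 0.67, adjusted p = 0.00519, limma). Its call was lost without any of Sham mice 1 to 5 or without tMCAO/R mouse 6, and also with quantile normalization (adjusted p = 0.0103) and with each library centred on its median (0.0101). Pcdh1, the most abundant protocadherin, was at 13.87 ± 2.645 and 13.92 ± 2.911 FPKM (SD, n = 6 mice each) and was not called (log2FC -0.00, standard error 0.15, adjusted p = 0.999, limma).

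Of the 5 delta-2 genes, Pcdh10 rose, Pcdh8 fell and 3 were not called. Pcdh8, known as arcadlin, is induced by neuronal activity and draws N-cadherin from the synapse in rats. It was at 4.79, 6.87 and 8.37 FPKM in Sham mice and at 3.54, 4.51 and 5.60 in tMCAO/R mice (log2FC -0.48, adjusted p = 0.00478, limma), with overlap, and its call was lost without Sham mouse 1, 2, 3 or 6 or tMCAO/R mouse 1 or 2. Pcdh17, which clusters presynaptic vesicles in corticostriatal circuits of mice, was at 5.144 ± 0.9151 and 6.349 ± 1.169 FPKM (log2FC 0.26, adjusted p = 0.0982, limma). The X-linked Pcdh19, whose human counterpart is mutated in an epilepsy of girls, was at 2.711 ± 0.5245 and 2.006 ± 0.8568 FPKM (log2FC -0.33, adjusted p = 0.085, limma). Pcdh18 was at 0.0784, 0.196 and 0.225 FPKM in Sham mice and at 0.127, 0.334 and 0.420 in tMCAO/R mice, and it rose only without tMCAO/R mouse 4 (log2FC 0.18, adjusted p = 0.00627, limma).
Pcdh15, which forms the tip links of hair cells in the inner ear, was read at 0.0294 to 0.0562 FPKM in Sham mice and at 0.0696 to 0.128 in tMCAO/R mice. The groups did not overlap, and the gene was called with limma-voom on fragments (log2FC 0.98, standard error 0.21, adjusted p = 0.00124) but not on log2(FPKM + 1) (0.05, adjusted p = 0.104).

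The log2 ratios of related single genes, taken within each mouse, differed between the groups. The log2 ratio of Pcdh8 to Pcdh10 was 1.39 ± 0.36 under Sham and -1.15 ± 0.277 under tMCAO/R (SD, n = 6 mice per group), lower in 6 of 6 tMCAO/R mice than in any Sham mouse (difference -2.55, standard error 0.19, adjusted p = 0.00504, exact permutation test). The ratio of Pcdh7 to Pcdh9 was -0.446 ± 0.135 and 0.512 ± 0.294, higher in 6 of 6 tMCAO/R mice than in any Sham mouse (difference 0.96, standard error 0.13, adjusted p = 0.00504, same exact test). The ratio of Pcdh17 to Pcdh19 was 0.903 ± 0.205 and 1.67 ± 0.505, with overlap (difference 0.77, standard error 0.22, adjusted p = 0.0227, same exact test). For the ratios that do not overlap the unadjusted p was 0.00216, the smallest that 6 mice against 6 allow.

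Levels of different genes were compared after scaling each to the union of its exons in GENCODE M39, since the lengths behind the deposited FPKM exceeded that union by over 1.2 times for 24 members. On this scale the highest means in Sham mice were those of Pcdh1 (27.6 FPKM), Pcdh8 (18.9), Pcdh9 (7.34), Pcdh20 (6.91), Pcdhb9 (6.88) and Pcdh19 (6.81). In tMCAO/R mice the order was Pcdh1 (27.7), Pcdh10 (16.0), Pcdh9 (14.15), Pcdh8 (12.65), Pcdhgc5 (10.4) and Pcdh7 (8.39). Pcdh10 and Pcdh7 entered these leading ranks from 3.96 and 2.24 FPKM in Sham mice, and Pcdh20 left them with 0.997. Neighbours in these orders were not tested against each other.

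The promoters of the single members with the largest rises and fall in log2FC on log2(FPKM + 1) are shown for what their letters hold. RefSeq promoters (GRCm38.p6, a build other than GRCm39) were examined for 9 members, all of them single genes. Promoters of the clustered genes and of Pcdh1 were not examined, so how many of the 64 members RefSeq covers was not tested. No promoter was found for Pcdh11x, whose ratio of means (5.37) was higher than those of Pcdh10 (4.04) and Pcdh7 (3.74). The 250 bases upstream of the start are printed 5′ to 3′ for Pcdh10 (chr3:45378148-45378397, plus strand), Pcdh7 (chr5:57717831-57718080, plus strand) and Pcdh20 (chr14:88471397-88471646, minus strand). Capitals mark the core of the cAMP response element, TGACG, and the GC box, GGGCGG, on either strand.
Pcdh10: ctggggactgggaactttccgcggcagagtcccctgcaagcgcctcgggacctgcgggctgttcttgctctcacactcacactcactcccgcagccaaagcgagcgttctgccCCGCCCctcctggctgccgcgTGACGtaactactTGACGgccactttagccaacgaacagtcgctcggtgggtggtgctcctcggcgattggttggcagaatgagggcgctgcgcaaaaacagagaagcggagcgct
Pcdh7: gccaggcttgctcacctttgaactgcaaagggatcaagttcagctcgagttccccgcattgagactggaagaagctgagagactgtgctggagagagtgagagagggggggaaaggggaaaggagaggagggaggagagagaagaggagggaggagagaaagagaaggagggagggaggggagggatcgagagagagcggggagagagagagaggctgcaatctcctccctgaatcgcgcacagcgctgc
Pcdh20: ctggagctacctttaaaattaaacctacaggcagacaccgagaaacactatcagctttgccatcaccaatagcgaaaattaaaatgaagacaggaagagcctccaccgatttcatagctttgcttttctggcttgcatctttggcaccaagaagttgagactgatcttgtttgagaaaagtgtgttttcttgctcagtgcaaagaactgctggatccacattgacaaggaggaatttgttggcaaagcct
The Pcdh10 promoter held 2 CRE cores and 1 GC box, which do not overlap, and neither motif was in these windows of Pcdh7 and Pcdh20. Of 32851 promoters of the same length, 17.8% held a CRE core and 32.7% a GC box. Of 10 promoters of the 9 members, 3 held a CRE core and 4 a GC box. A CRE core was also in Pcdh9, and a GC box in the uncalled Pcdh17, Pcdh18 and Pcdh19. Other motifs were searched but are not marked. The AP-1 motif (TGANTCA, 6.75% of all promoters) and the hypoxia response core (ACGTG, 16.6%) were in 0 of the 10. The CGCT box was in 10 (55.7%) and the TATA box (TATAAA) in 2 (12.4%). The GC content was 63.2% for Pcdh10, 58.4% for Pcdh7 and 42.4% for Pcdh20, against a median of 52.4% over all promoters. A match describes the letters and is not a binding site.

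Genes known to work with protocadherins were called in either direction at shares near that of all genes (32.0%). More of them rose than fell, where 15.5% of all genes rose and 16.5% fell. Of 21 regulators of protocadherin promoter choice, 6 rose and 1 fell, with a median log2FC of 0.20. Ctcf, the zinc finger protein that loops the promoters to their enhancers, was at 9.37 ± 0.412 FPKM under Sham and 10.1 ± 1.70 under tMCAO/R (SD, n = 6 mice per group) and was not called (log2FC 0.09, adjusted p = 0.454, limma). The DNA methyltransferase gene Dnmt3a (log2FC 0.36) rose, and the neuronal repressor Rest (-0.18) fell. Of 24 intracellular partners, 6 rose and 2 fell, among them Marcks (log2FC 0.83), a substrate in Pcdhg signalling, the protease Adam10 (0.65), which sheds Pcdhg ectodomains, and Ptk2b (-0.87), the kinase Pyk2.
Of 14 genes beside the clusters on chromosome 18, Cd14 rose and 4 fell (median log2FC -0.23), where 15.5% of all genes rose and 16.5% fell. Of 30 other genes of the cadherin superfamily, 14 rose and 4 fell, with a median log2FC of 0.34, and the smallest p among them were those of the classical cadherins Cdh6 (log2FC 1.18), Cdh18 (0.87) and Cdh22 (1.45).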

How the data were processed

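The authors cleaned reads with fastp, used HISAT2 2.2.1 with GRCm39 for alignment, HTSeq 2.0.2 for quantification and DESeq2 1.24.0 for testing, and deposited FPKM values for 12 libraries, 6 per group. The annotation release, strandedness and treatment of fragments in shared exons are not given in the sources used here. Within each gene the FPKM are whole multiples of the value of 1 fragment, and whole fragments were recovered for 14317 of 14317 genes (tolerance 0.001 fragments).

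Groups were compared in R 4.3.3 by limma 3.58.1, with a trended eBayes fit to log2(FPKM + 1) over all 14317 genes with no minimum, with Benjamini-Hochberg adjustment over all of them. A gene rose or fell at an adjusted p below 0.01, and a DEG also passed a |log2FC| of 2. Limma-voom needed 10 fragments or more in 6 libraries or more, with trimmed-mean scaling. Ratios of 2 genes within a mouse, 0.1 FPKM added, were put to exact permutation tests (two-sided), called at an adjusted p below 0.05 over 7 ratios (Python 3.11.15, numpy 2.4.6, pandas 2.3.3, scipy 1.17.1). Identifiers were matched to GENCODE M39 (14315 genes). The scripts were checked on simulated data.

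Members and lists were chosen with earlier results of these data known. Values are given for the 3 members with the smallest p and the most abundant member of each class, the C-type isoforms and up to 3 genes per direction of each other list. Not every gene this rule takes is reported here. Other members and Ctcf were named after their values were seen. Alternatives covered the pseudocount, filters, normalization, a block by replicate number and leaving out each library. The replicates are 1 mouse each per the study.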

Additional observations from a re-analysis of the deposited data

Results flagged for a closer look

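A mouse far from the other 5 of its group, by Dixon's test at the 95% level, was found in 14 of 92 groups of values tested. In separate groups chance alone gives such a mouse in about 1 of 20. These groups are not separate, since the sums and ratios hold genes also tested singly, so the count cannot be set against that share. In Sham mouse 6, 7 values stood high: 2.19 FPKM for Pcdhac2 (the nearest other Sham mouse had 0.894), 3.69 for Pcdhgc5, 0.947 for Pcdhga4, 0.249 for Pcdha7 and 3.22 for Pcdh9, and summed FPKM of 4.89 over the Pcdha genes and 18.5 over the Pcdhg genes. In tMCAO/R mouse 4, 4 values stood apart: Pcdh9 at 7.65 FPKM and Pcdh15 at 0.128 FPKM were high, Pcdha12 at 0.546 FPKM was low, and the log2 ratio of Pcdh17 to Pcdh19 was low at 0.696. Of the rest, Pcdh18 was low in Sham mouse 3 at 0.0784 FPKM, the summed FPKM of the Pcdhb genes was high in tMCAO/R mouse 6 at 41.6, and the log2 ratio of Pcdh8 to Pcdh10 was high in tMCAO/R mouse 3 at -0.636.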

How the results depend on the processing

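Of the 32 calls, 26 were kept with each library left out in turn, and 25 of these also under each pseudocount, filter (where tested), normalization and limma-voom and with the block. With 1 library left out, 21 to 29 protocadherins rose and 5 to 9 fell, and 1 to 3 single genes fell (1 where the call of Pcdh8 was lost, 3 without tMCAO/R mouse 4). With a mean of at least 1 FPKM required, 8 protocadherins rose, 1 of them in Pcdha and 2 in Pcdhg, and with at least 0.5 FPKM in 6 libraries 4 Pcdha genes rose, since fewer members were tested. Centring each library on its median left 1 Pcdhb gene that rose, and it split all genes into 1865 that rose and 3064 that fell, against 2226 and 2359. The log2FC of Pcdh1 changed sign, to 0.0287 with limma-voom, 0.108 with limma-voom without tMCAO/R mouse 4 and -0.0808 to 0.0911 with 1 library left out. Its size stayed below its error in each. The summed single genes had a ratio of 1.41 when fragments were scaled by library size alone and 1.09 in FPKM. For Pcdhgc3 to Pcdhgc5 the difference was -0.455 with 0.5 FPKM added (adjusted p = 0.0114, exact permutation test) and 0.0533 with 0.02 FPKM, and for Pcdhgc4 to Pcdhgc5 it was -0.419 with 0.5 FPKM added. For Pcdhac1 to Pcdhac2 it was -0.301 with 0.02 FPKM added (adjusted p = 0.197).

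Same-numbered mice did not deviate together (correlations -0.13 to 0.224), so the numbers do not pair them. With the replicate block, 1806 genes rose and 1836 fell, 23 protocadherins rose and 7 fell, and the calls of Pcdha10 and Pcdhb18 were lost. With limma-voom and the block, Pcdh1 was at 0.0289, and the calls of Pcdha10, Pcdhb15 and Pcdhb21 (adjusted p = 0.0125) were lost. The exact sign-flip test with the block gave an adjusted p of 0.0729 for Pcdhac1 to Pcdhac2 (-0.787), Pcdh7 to Pcdh9 (0.957) and Pcdh8 to Pcdh10 (-2.55) and of 0.109 for Pcdh17 to Pcdh19 (0.768). For the ratios at 0.0729 every pair of mice differed in the same direction, so their unadjusted p was the smallest this test can give. The limma-voom fits without tMCAO/R mouse 4 and with the block were chosen after seeing the data. Depth limits genes with few fragments, such as Pcdha1 with 0 to 30 per library.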

Other observations

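Some uncalled clustered genes differed widely among tMCAO/R mice, as read after their values were seen. Pcdhga11 was at 0.113, 0.196 and 0.192 FPKM in tMCAO/R mice 1, 3 and 5 and at 0.944, 0.741 and 0.647 in mice 2, 4 and 6, and Pcdhgb5 was at 0.139, 0.0578 and 0.115 FPKM in the former and at 0.523, 0.539 and 0.310 in the latter. Pcdhb10 was listed at 0 in tMCAO/R mouse 4 and lay between 1.52 and 1.98 FPKM in the other tMCAO/R mice, and Pcdhb2 was at 0.023 FPKM in that mouse and at 0.387 to 0.562 in the others.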
